A study of Mus musculus with 11 samples.

Results

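The Wnt pathway genes of lung mesenchyme were examined after sham surgery and after pneumonectomy (PNX), in which part of the lung is cut out. Members were the rows of the count table whose symbol begins with Wnt, Fzd, Rspo, Sfrp or Dkk followed by a number and at most 1 letter, together with Frzb, Wif1, Notum, Lrp5, Lrp6, Lgr4, Lgr5, Lgr6, Axin2, Lef1, Tcf7, Nkd1, Znrf3 and Rnf43. This gave 55 genes of 24411 in the table, and 50 of them reached 1 CPM (read counts scaled to a common library total) in at least 3 of the 11 libraries. The 5 that did not were Dkk1, Dkk4, Wnt1, Wnt8a and Wnt16, each with 18 to 36 reads over all libraries. The rule used the symbol and the level and no difference between groups, but it was set with earlier results of these data known.

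RNA came from lung cells of C57BL6 mice that were sorted by flow cytometry for the absence of EpCAM, CD45 and CD31, surface proteins of epithelial, blood and endothelial cells. The 4 groups were sham at day 7 after surgery (3 libraries), PNX at day 7 (3 libraries), sham at day 14 (2 libraries) and PNX at day 14 (3 libraries). All mice carried the same strain background and no allele or drug is named. No label gives age, or says that libraries came from separate animals, so the p-values weigh differences against a spread among libraries that may be partly technical.

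Wnt proteins are lipid-modified ligands that bind Frizzled (Fzd) receptors together with the co-receptors Lrp5 and Lrp6. In the canonical branch this stabilises beta-catenin, which acts with the DNA-binding factors Tcf7 and Lef1 to switch on targets such as Axin2; Wnt5a and its relatives mostly signal without beta-catenin. R-spondins (Rspo) bind Lgr receptors and clear the ubiquitin ligases Znrf3 and Rnf43, which otherwise remove Frizzled from the cell surface. Secreted Sfrp proteins, Frzb and Wif1 bind Wnt ligands, Dkk1 blocks the co-receptors, and Notum removes the lipid from Wnt. In the lung, Wnt2 and Wnt2b of the embryonic mesenchyme are needed for the lung to form, and Wnt ligands of fibroblasts maintain alveolar type II cells.

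Total counts ranged from 2539628 to 9008592 per library, and the 50 members took 2640 to 21195 of them. Counts on 1455 olfactory and vomeronasal receptor genes, used here as a measure of background, were 89.9 to 1606 CPM of total counts. The highest value was that of sham day 14 replicate 1 (1606). Next came the replicates 2 of the day 7 groups, PNX at 1195 and sham at 635. PNX day 7 replicate 1 followed closely at 587, so the cut after 3 libraries used below falls at no clear gap. The 9 general mesenchymal markers summed to 9718 to 28190 CPM. Markers of gated-out cells were also present: the 12 epithelial markers summed to 218 to 18410 CPM, the 13 haematopoietic markers to 80.5 to 799.5 CPM and the 9 endothelial markers to 134 to 1203 CPM. Sftpc, at 23.5 to 15520 CPM, was the main part of the large epithelial sums, while Epcam stood at 0.58 to 13.4 CPM. At 0 counts were Foxj1 in sham day 14 replicate 2, Cd3e in PNX day 14 replicate 2, and Itgam and Ms4a1 in PNX day 14 replicate 3. CPM values below are scaled by TMM factors (a correction for RNA composition). Levels of different genes are compared per kilobase of exon.

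The upstream sequences of 2 ligands and 1 receptor are shown because Wnt2 was the leading ligand, because Wnt2 and Wnt4 were the members with the smallest p-values for surgery over both days, and because Fzd1 was the leading receptor. Each comes from the stretch of 250 bases before a RefSeq start, written 5′ to 3′ on the gene's strand, on GRCm38.p6 (the mm10 build). RefSeq and GENCODE place these starts differently. The last 140 bases of the Wnt2 stretch and the last 146 of the Wnt4 stretch lie inside the gene as GENCODE annotates it and were left out. The Fzd1 stretch ends 181 bases before the GENCODE gene and is printed whole. The bases just after this Fzd1 start were not found in a GENCODE transcript of the gene, while those after the Wnt2 and Wnt4 starts were. Capitals mark CpG dinucleotides in Wnt2 (chr6:18030586-18030695, minus strand, 110 bases) and Wnt4 (chr4:137277385-137277488, plus strand, 104 bases). In Fzd1 (chr5:4758217-4758466, minus strand) they mark TCAAAG, the reverse complement of CTTTGA, the core letters that Tcf and Lef factors bind.
Wnt2: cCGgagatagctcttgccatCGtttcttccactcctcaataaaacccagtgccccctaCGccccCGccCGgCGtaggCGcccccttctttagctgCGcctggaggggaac
Wnt4: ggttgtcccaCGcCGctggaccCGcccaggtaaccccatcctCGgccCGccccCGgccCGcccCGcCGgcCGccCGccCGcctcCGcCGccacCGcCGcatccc
Fzd1: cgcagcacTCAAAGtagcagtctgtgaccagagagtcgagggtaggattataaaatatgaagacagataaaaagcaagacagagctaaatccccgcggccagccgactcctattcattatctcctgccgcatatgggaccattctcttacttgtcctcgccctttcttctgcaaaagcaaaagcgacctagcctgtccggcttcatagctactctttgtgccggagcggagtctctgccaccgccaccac
The printed bases hold 16 CpG dinucleotides in Wnt4 and 8 in Wnt2. The whole stretches of 250 bases hold 44 and 20, against a median of 6 over all 32851 stretches in the table and 16.5 over the 44 stretches of the 36 members found there. CTTTGA on either strand was present in 13.6% of the member stretches and in 13.8% of all stretches. Besides Fzd1 the members with a match were Dkk1, Frzb, Lef1, Wnt11 and Wnt5b. A match is a description of the letters only.

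The levels spanned a wide range and the secreted inhibitors stood highest. Dkk3, a Dickkopf relative whose part in Wnt signalling is unsettled, had the highest mean of all members at 134 ± 79.3 CPM per kilobase (SD over 11 libraries). It was followed by Sfrp2 (50.7 ± 35.0 CPM per kilobase), Sfrp1 (44.1 ± 17.9) and Sfrp4 (36.5 ± 19.2), whose spreads overlap. Wnt2 was the first ligand at 19.9 ± 8.85 CPM per kilobase and Fzd1 the first receptor at 16.1 ± 4.08. The median over members was 12.9 for the 9 inhibitors, 1.61 for the 12 receptors and 0.770 for the 16 ligands. Summed per kilobase, the inhibitors exceeded the ligands by 2.46 to 11.2 times, lowest in sham day 14 replicate 1 and highest in PNX day 7 replicate 3. Dkk3 alone held 31 to 59.7% of the inhibitor sum (median 44.7%), so this excess rests in large part on a gene of unsettled role.

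**Figure D1:**
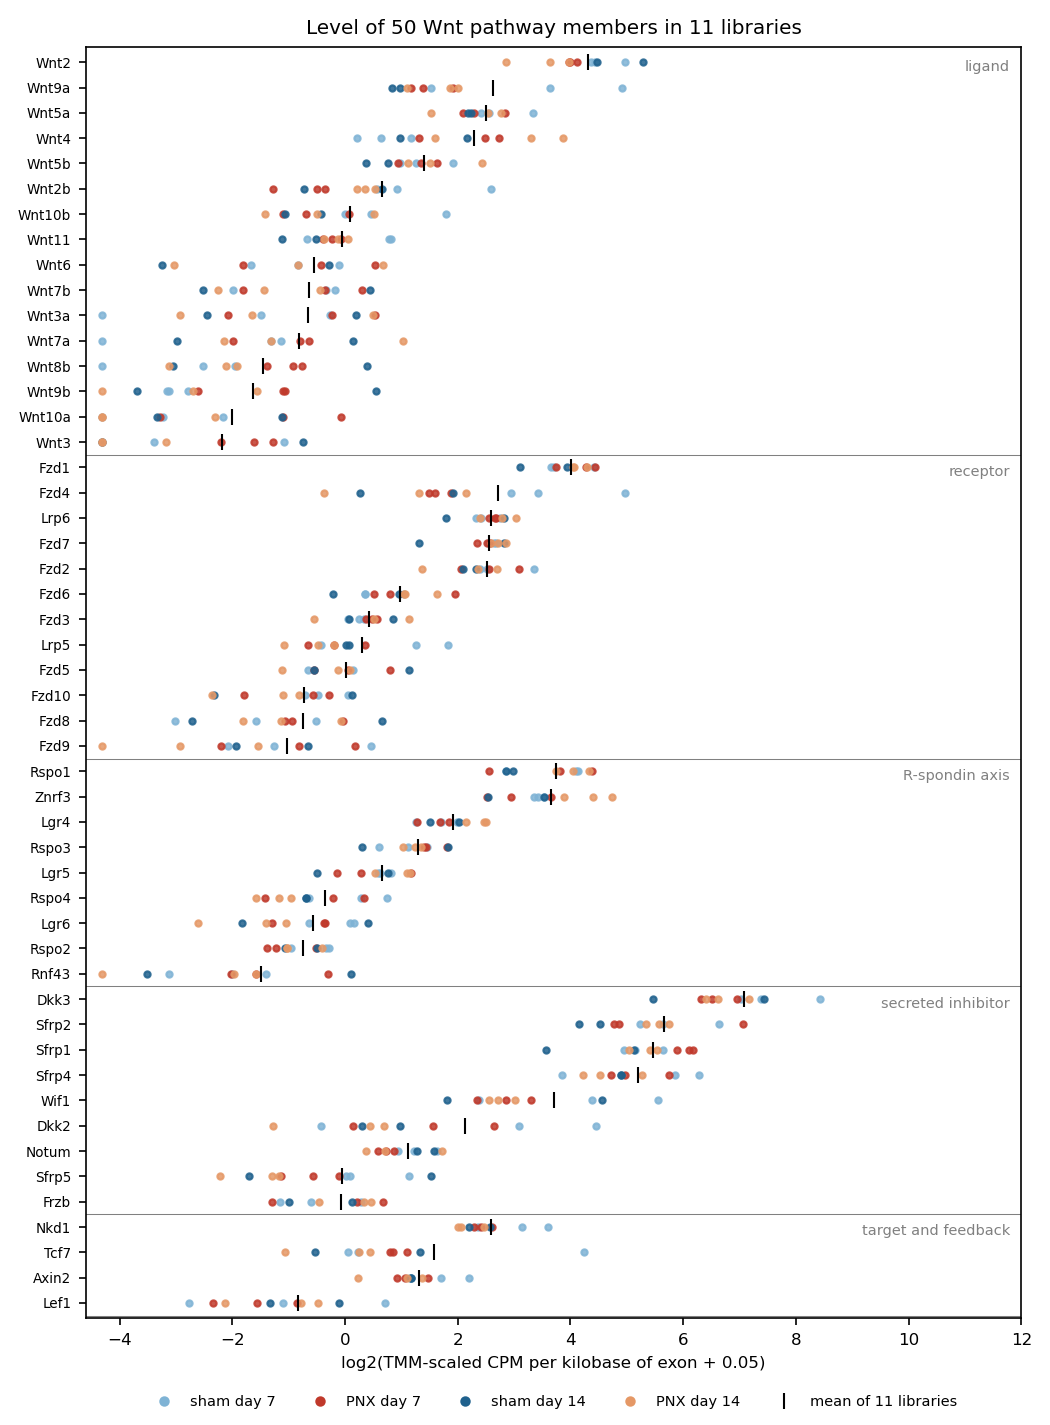
Level of the 50 reported members in each of 11 libraries, as log2 of TMM-scaled CPM per kilobase of exon plus 0.05; each point is 1 library, coloured by group, and the black tick is the mean of 11 libraries. Dkk3 (mean 134 CPM per kilobase) and the Sfrp genes lie to the right; the ligands with the lowest means spread widest, with libraries at 0 drawn at the left edge.

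Of the 50 members, 20 had a mean under 5 CPM. For 13 of these 20 the highest value was in 1 of the 3 libraries of highest background, against 6 of the 30 members at 5 CPM or more. Wnt9b was at 6.38 CPM in sham day 14 replicate 1 and at 0 to 1.94 CPM in the other libraries. Rnf43 was at 6.72 CPM in the same library and at 0 to 4.98 CPM elsewhere. The part of the background in these low values was not tested. Of the 18 low members tested, 9 were higher and 9 lower after PNX at day 7 and 6 higher and 12 lower at day 14. The 30 members at 5 CPM or more split into 9 higher and 21 lower at day 7 and 18 higher and 12 lower at day 14.

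None of the 48 members that passed the filter on low counts passed the threshold of an adjusted p under 0.05 in any of the 6 comparisons (edgeR quasi-likelihood test, Benjamini-Hochberg over 16011 genes). Over all genes, the shares that passed between PNX and sham were 0.0375% (day 7), 0.00625% (day 14) and 0.194% averaged over the days (0.137% higher, 0.0562% lower). They were 0.0187% between days after sham, and 0% between days after PNX and in the interaction. The interaction asks whether the surgery difference itself differs between days. At an unadjusted p under 0.05, 2 members were higher and 7 lower at day 7, against 4.66% and 8.07% of all genes (12.7% in either direction). For day 14 the members numbered 4 higher and 1 lower, against 3.19% and 3.63% (6.81%). Averaged over the days there were 2 higher and 6 lower, against 3.92% and 6.37% (10.3%). In the interaction there were 4 higher and 2 lower, against 4.16% and 4.6% (8.76%). Between days there were 2 higher and 0 lower after PNX, against 3.72% and 3.13% (6.85%), and 1 higher and 4 lower after sham, against 6.32% and 7.94% (14.3%). DESeq2 called 3 members at day 7 (2.76% of all genes), 2 averaged over the days (1.9%), 1 in the interaction (0.481%), 2 between days after sham (4.13%) and 0 in the other comparisons. Limma voom was run with sample weights throughout, so the libraries did not count equally. It called 2 at day 7 (5.82% of all genes), 2 between days after PNX (1.09%) and 0 in the others. Those members are given with their values by role.

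The split of the members by direction depended on the scaling. At day 7, 18 of 48 were higher and 30 lower after PNX (median log2 fold change -0.18, against 0.03 over all genes), but with total counts in place of TMM factors the split was 24 and 24. At day 14 it was 24 and 24 (median -0.0026, all genes -0.07), and 19 higher and 29 lower with total counts. The 2 days share no library. Members with the same sign at both days numbered 28, 11 higher and 17 lower, or 58.3% of members against 46.5% of all genes. Groups did not overlap for 5 members higher and 6 lower at day 7, against 9.95% and 9.57% of all genes (19.5% in either direction). At day 14 this held for 9 higher and 3 lower, against 9.57% and 8.28% (17.9%). Between days after PNX it held for 4 higher and 5 lower, against 9.02% and 9.08% (18.1%), and after sham for 0 higher and 8 lower, against 12.5% and 11.8% (24.3%).

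**Figure D2:**
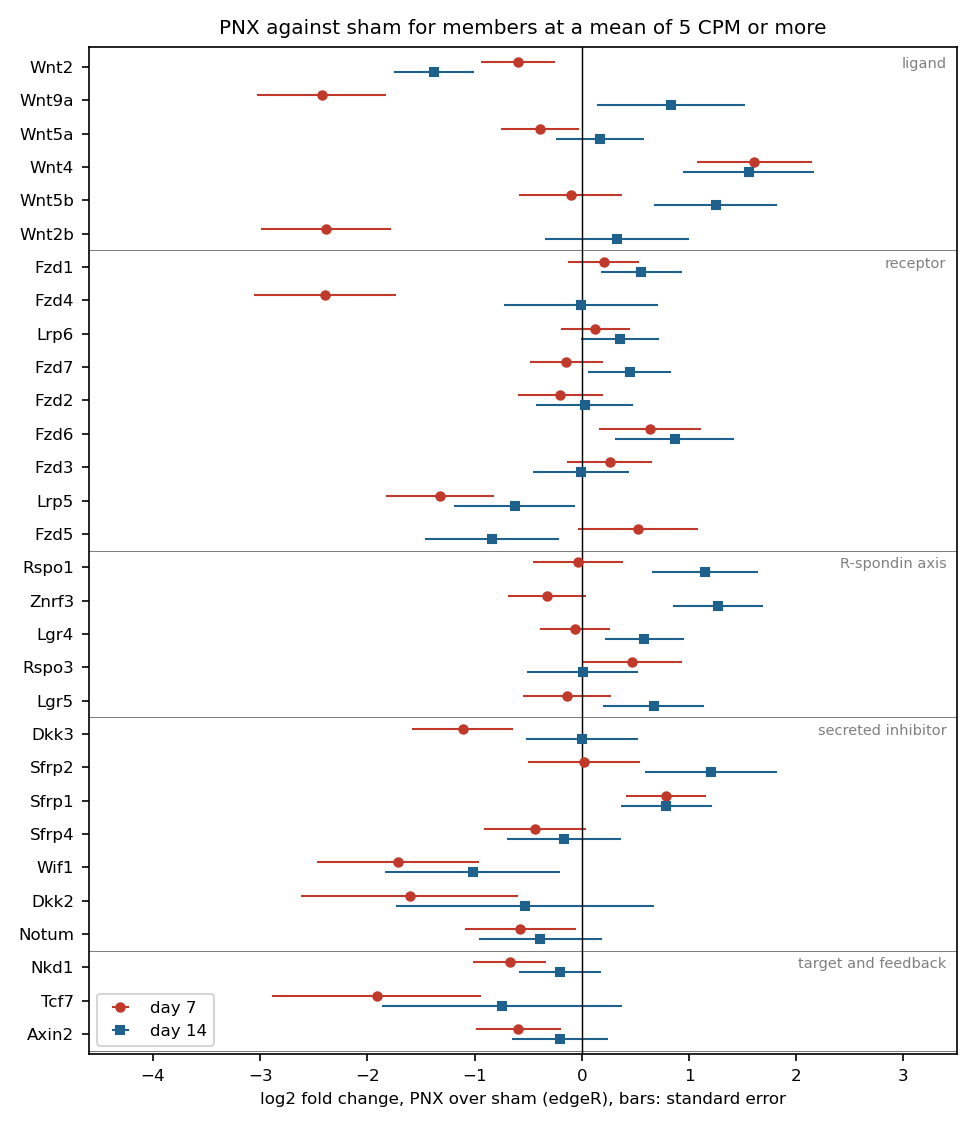
Log2 fold change of PNX over sham at day 7 (circles) and day 14 (squares) for the 30 members with a mean of 5 CPM or more, with the standard error from edgeR as bars, ordered by role. Wnt4 and Sfrp1 lie to the right of 0 and Wnt2 and Lrp5 to the left at both days, while Wnt9a, Wnt2b and Fzd4 lie far left at day 7 only; no member passed the adjusted threshold.

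Among the ligands, Wnt2, a canonical ligand, had a lower value in every PNX library than in any sham library of the same day. At day 7 it stood at 46.4, 48.8 and 70.6 CPM in sham and at 35.2, 39.0 and 35.6 CPM in PNX (log2 fold change -0.60 ± 0.34 SE, edgeR adjusted p = 0.516). At day 14 it stood at 49.7 and 88.1 CPM in sham and at 28.0, 35.5 and 16.2 CPM in PNX (-1.38 ± 0.38, adjusted p = 0.294). This separation in the lower direction at both days held for 1 of the 48 members and for 1.11% of all genes. Averaged over the days the log2 fold change was -0.99 ± 0.25 (adjusted p = 0.114), and DESeq2 called it (-0.99 ± 0.27, adjusted p = 0.0173). Without sham day 14 replicate 1 edgeR called it too (-1.17 ± 0.26, adjusted p = 0.0381). Without sham day 14 replicate 2 the log2 fold change was -0.70 ± 0.27 over both days (0.295) and -0.75 ± 0.44 at day 14 (0.315). Each of these leaves 1 sham library at day 14, whose spread is taken from the other groups. Wnt2 lies on chromosome 6 (17988940 to 18030585, mm10). The 8 alveolar fibroblast markers summed to 2669 to 3078 CPM in sham and 1364 to 1540 CPM in PNX at day 7, and to 1761 to 4409 CPM and 1523 to 2475 CPM at day 14. These markers differed. Tcf21, Fgfr4, Slc7a10 and Ces1d were lower after PNX without overlap at both days. At day 14 Slc7a10 stood at 32.25 and 40.86 CPM in sham and at 8.02, 10.8 and 9.44 CPM in PNX. Npnt, Itga8, Limch1 and Fgf10 overlapped at day 14, Itga8 at 231.5 and 1359 CPM in sham and 576.4, 525.5 and 426.4 CPM in PNX. The part of these markers in the Wnt2 difference was not tested. In bulk libraries fewer cells of a type and less RNA per cell cannot be told apart.

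Wnt4, a ligand known from kidney and gonad development, had higher group means after PNX at both days. Its day 7 values were 6.33, 9.23 and 4.64 CPM in sham and 10.2, 23.3 and 27.8 CPM in PNX (log2 fold change 1.61 ± 0.54, edgeR adjusted p = 0.198), with groups that did not overlap. Its day 14 values were 18.5 and 8.05 CPM in sham and 12.5, 60.7 and 41.1 CPM in PNX (1.56 ± 0.61, adjusted p = 0.625). There replicate 1 of PNX lay between the sham libraries, so the groups overlapped. Over both days the log2 fold change was 1.58 ± 0.41 (adjusted p = 0.115). It was called by DESeq2 (1.55 ± 0.42, adjusted p = 0.0161), and by edgeR without a filter on low counts (1.63 ± 0.37, 0.0359) and without PNX day 14 replicate 1 (1.80 ± 0.35, 0.0348). Wnt4 lies on chromosome 4 (137277489 to 137299726). The 5 mesothelial markers in the table summed to 603 to 3063 CPM (sham) and 750 to 1847 CPM (PNX) at day 7, and to 263 to 1101 CPM (sham) and 919 to 1483 CPM (PNX) at day 14. The markers differed at day 14. Wt1 stood at 16.1 and 19.5 CPM in sham and at 143, 272 and 359 CPM in PNX, and Krt19 was also higher without overlap. Msln stood at 113 and 369 CPM in sham and at 393, 160 and 233 CPM in PNX, and Upk3b and Lrrn4 overlapped too. The part of the mesothelial markers in the Wnt4 values was not tested.

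Wnt9a and Wnt2b both had their highest value in sham day 7 replicate 3. Wnt9a, a ligand best known from joint and blood stem cell development, stood at 9.42, 41.5 and 99.6 CPM in sham and at 7.31, 12.5 and 8.48 CPM in PNX at day 7 (log2 fold change -2.42 ± 0.60, edgeR adjusted p = 0.107), and the groups overlapped. For day 14 the values were 6.38 and 5.73 CPM in sham and 13.2, 11.9 and 6.97 CPM in PNX (0.83 ± 0.69, adjusted p = 0.831), with every PNX library higher. The interaction was 3.26 ± 0.93 (adjusted p = 0.351) and the change between days after sham -3.05 ± 0.74 (adjusted p = 0.105). DESeq2 called Wnt9a in 3 comparisons: at day 7 (adjusted p = 0.00504), in the interaction (0.0409) and between days after sham (0.00213). Without sham day 7 replicate 3 the day 7 difference was -1.44 ± 0.53 (edgeR adjusted p = 0.659). Without sham day 7 replicate 1 it was -2.92 ± 0.43 and passed (0.00424), as did the change between days after sham (-3.55 ± 0.52, 0.00802). Wnt9a lies on chromosome 11 (59306928 to 59333552).

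Wnt2b, the close relative of Wnt2, stood at 7.73, 6.01 and 24.9 CPM in sham and at 1.53, 2.77 and 3.08 CPM in PNX at day 7 (log2 fold change -2.38 ± 0.61, edgeR adjusted p = 0.106). Every PNX library lay below every sham library. At day 14 it stood at 6.38 and 2.32 CPM in sham and at 4.66, 5.18 and 5.84 CPM in PNX (0.33 ± 0.67, adjusted p = 0.931), and the groups overlapped. DESeq2 (adjusted p = 0.0148) and limma voom (0.00933) called the day 7 difference. So did edgeR without a filter on low counts (0.0270) and without sham day 7 replicate 1 (0.0335). Without replicate 3 of the same group it was -1.48 ± 0.64 (0.746). The interaction was 2.71 ± 0.91 (adjusted p = 0.386), and 1.79 ± 0.92 (0.914) without that replicate 3. Wnt2b lies on chromosome 3 (104945272 to 104961921).

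Wnt5b, a relative of Wnt5a, stood at 4.37 and 3.29 CPM in sham and at 5.60, 7.38 and 14.2 CPM in PNX at day 14 (log2 fold change 1.25 ± 0.57, edgeR adjusted p = 0.706). All PNX libraries lay above both sham libraries. At day 7 it ranged from 5.08 to 9.84 CPM in sham and from 4.93 to 8.09 CPM in PNX (-0.10 ± 0.48, adjusted p = 0.947), with overlap.

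The make-up of the ligand transcripts varied between libraries, and their sum ranged from 33.3 to 87.0 CPM per kilobase. Wnt2 took 21.5 to 77.6% of the summed ligand CPM per kilobase (median 41.1%) and ranked first in 10 of 11 libraries; in PNX day 14 replicate 3 Wnt4 ranked first. Wnt5a, which signals mostly without beta-catenin, took 8.53 to 19.6%. It overlapped between PNX and sham at each day, at 41.5, 45.3 and 78.2 CPM in sham and 37.9, 55.4 and 33.1 CPM in PNX at day 7, and 36.3 and 35.1 CPM in sham and 53.0, 45.0 and 22.2 CPM in PNX at day 14. The 95% intervals of its log2 fold change were -1.15 to 0.38 at day 7 and -0.69 to 1.03 at day 14. Wnt9a took 34.4% in sham day 7 replicate 3 and 23.7% in replicate 2 of that group, and Wnt4 29.8% in PNX day 14 replicate 2. Wnt3a lies 16175 bases from Wnt9a on chromosome 11 and had a mean of 0.583 CPM per kilobase against 6.09 for Wnt9a.

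**Figure D3:**
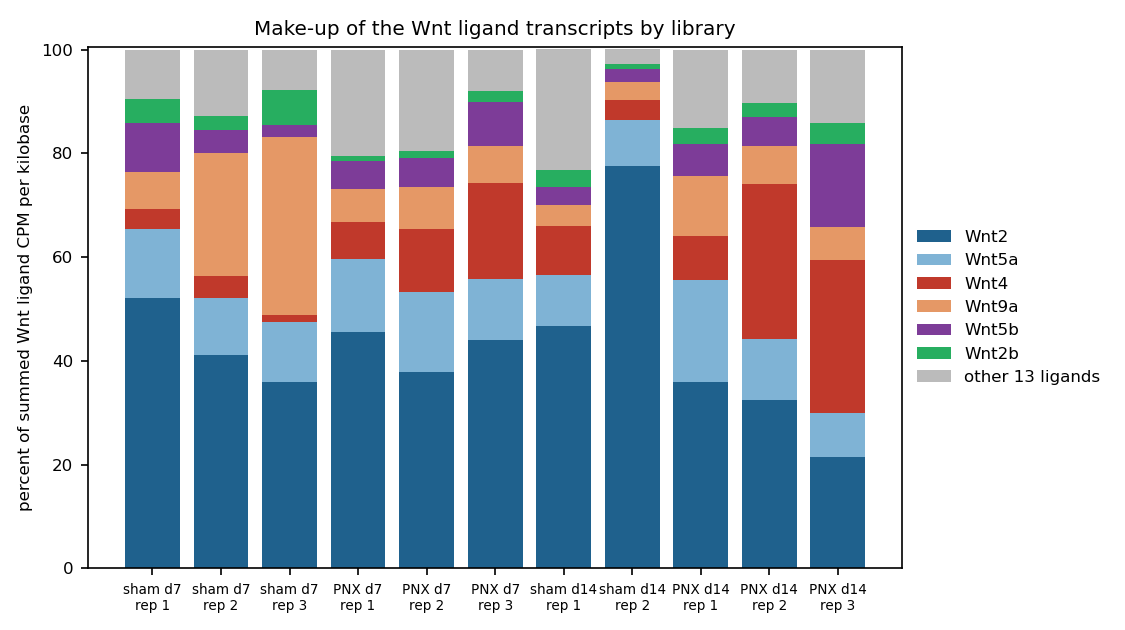
Share of each Wnt ligand in the summed ligand CPM per kilobase of exon, in percent, for each of 11 libraries; the grey part holds the other 13 ligands, the 3 under the reporting level included. Wnt2 ranges from 21.5% to 77.6%, Wnt9a stands out in sham day 7 replicates 2 and 3 and Wnt4 in PNX day 14 replicates 2 and 3.

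Among the receptors Fzd1 led and Fzd4 varied widely, from 4.87 to 209 CPM. Fzd1 ranked first among the 10 Frizzled genes in 10 of 11 libraries. It stood at 52.9, 54.3 and 89.6 CPM in sham and at 56.3, 80.8 and 90.1 CPM in PNX at day 7, and at 35.9 and 63.8 CPM in sham and 70.1, 82.2 and 68.8 CPM in PNX at day 14. The PNX libraries of day 14 all lay above the sham ones, but the log2 fold change of 0.56 ± 0.38 did not pass (edgeR adjusted p = 0.807). Fzd1 lies on chromosome 5 (4753839 to 4758035).

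Fzd4, which also serves as the receptor for norrin in blood vessels, stood at 51.4, 72.2 and 209 CPM in sham at day 7 and at 24.5, 18.6 and 20.0 CPM in PNX (log2 fold change -2.40 ± 0.66, edgeR adjusted p = 0.149). The groups did not overlap. Its day 14 values were 7.73 and 25.1 CPM in sham and 29.3, 4.87 and 16.4 CPM in PNX (-0.0059 ± 0.72, adjusted p = 0.998). The interaction was 2.39 ± 0.98 (adjusted p = 0.520), and between days after sham the log2 fold change was -2.71 ± 0.79 (adjusted p = 0.136). DESeq2 called day 7 (adjusted p = 0.00428) and the change between days after sham (0.00397), and limma voom called day 7 (0.0316). Without sham day 7 replicate 3 the day 7 difference was -1.55 ± 0.56 (edgeR adjusted p = 0.659). The 9 endothelial markers summed to 226 CPM in that library, the lowest of its group, and to 134 to 1203 CPM in PNX at day 7. Most of the 226 CPM was Tek (129 CPM) and Kdr (68.9 CPM), and the other markers stood at 0.435 to 11.7 CPM there. The part of endothelial cells in the Fzd4 values was not tested. Fzd4 lies on chromosome 7 (89404355 to 89413134).

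The co-receptor Lrp5 stood at 6.75, 34.1 and 22.8 CPM in sham and at 7.99, 11.9 and 5.65 CPM in PNX at day 7 (log2 fold change -1.33 ± 0.50, edgeR adjusted p = 0.257). Sham replicate 1 lay within the PNX range. For day 14 the values were 9.74 and 9.39 CPM in sham and 8.02, 4.08 and 6.52 CPM in PNX (-0.63 ± 0.57, adjusted p = 0.840), without overlap. Over both days it was -0.98 ± 0.38 (adjusted p = 0.355), and it was called in 1 case, at day 7 without sham day 7 replicate 1 (-1.75 ± 0.43, adjusted p = 0.0376). Its partner Lrp6 ranged from 46.4 to 111 CPM over all libraries, and Fzd7, a receptor for canonical ligands, from 11.1 to 32.6 CPM. Their lowest value was in both cases that of sham day 14 replicate 1. Fzd6, a receptor of planar cell polarity, stood at 9.07 and 3.90 CPM in sham and at 9.70, 14.8 and 9.89 CPM in PNX at day 14 (0.87 ± 0.55, adjusted p = 0.795), apart by a narrow margin. Fzd2, Fzd3 and Fzd5 had log2 fold changes between -0.84 and 0.53 at the 2 days.

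Of the 9 R-spondin axis genes, 3 were higher without overlap after PNX at day 14 (Znrf3, Rspo1 and Lgr4), against 9.57% of all genes, and none was at day 7. Rspo4, a low member, was lower without overlap at day 14, at 1.34 and 1.34 CPM in sham and 0.933, 1.10 and 0.674 CPM in PNX, against 8.28% of all genes. Znrf3, the ligase that removes Frizzled, stood at 45.4 and 90.8 CPM in sham and at 116, 167 and 211 CPM in PNX at day 14 (log2 fold change 1.27 ± 0.42, edgeR adjusted p = 0.502), so all PNX libraries lay higher. With only the second of these sham libraries kept this was 0.85 ± 0.47 (0.853), and with only the first kept 2.01 ± 0.53 (0.0861). At day 7 it stood at 91.1, 80.3 and 84.2 CPM in sham and at 60.5, 44.9 and 98.4 CPM in PNX (-0.32 ± 0.36, adjusted p = 0.775). Between days after PNX the log2 fold change was 1.27 ± 0.37, without overlap (adjusted p = 0.513), and limma voom called it (1.41 ± 0.26, adjusted p = 0.0129). The interaction was 1.59 ± 0.55 (adjusted p = 0.415). It was called without sham day 14 replicate 2, which leaves 1 sham library at that day, taken to vary like the others (2.37 ± 0.62, adjusted p = 0.0492). Znrf3 lies on chromosome 11 (5276324 to 5444847).

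Rspo1, the leading R-spondin, stood at 15.1 and 13.9 CPM in sham and at 25.7, 32.0 and 38.7 CPM in PNX at day 14 (log2 fold change 1.15 ± 0.49, edgeR adjusted p = 0.691). Its day 7 values were 34.0, 14.0 and 33.2 CPM in sham and 27.2, 11.3 and 40.3 CPM in PNX (-0.03 ± 0.42, adjusted p = 0.982). The day 14 groups were apart and the day 7 groups overlapped. Lgr4, an R-spondin receptor, stood at 13.9, 18.6 and 20.8 CPM in PNX at day 7 and at 32.8, 25.7 and 32.1 CPM in PNX at day 14 (0.76 ± 0.33, adjusted p = 0.724; limma voom 1.03 ± 0.25, adjusted p = 0.0491). Its sham libraries were at 23.1, 13.8 and 18.9 CPM at day 7 and at 16.5 and 23.5 CPM at day 14, below all PNX libraries of that day. Lgr5, known as a stem cell marker of the gut, ranged from 6.72 to 22.5 CPM and Rspo3 from 3.66 to 10.8 CPM, with overlap between PNX and sham at each day.

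**Figure D4:**
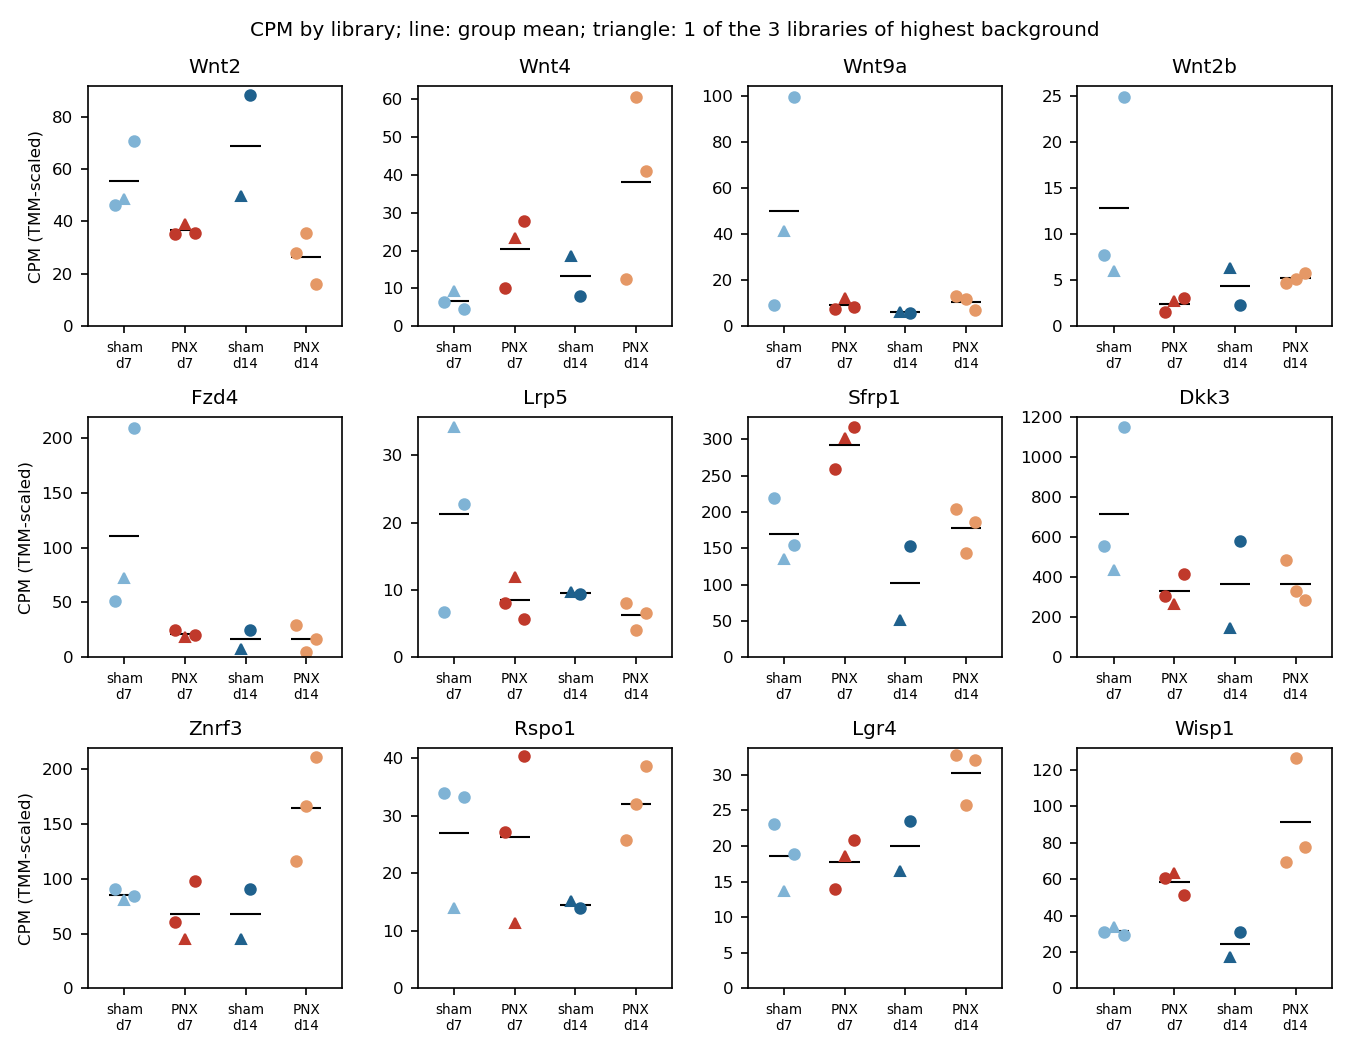
TMM-scaled CPM of 11 members and of Wisp1 in each library by group (sham or PNX at day 7 or 14), with the group mean as a line; triangles are the 3 libraries of highest background. Wnt2 is lower and Wisp1 higher in every PNX library than in any sham library of the same day, and sham day 7 replicate 3 stands far above the rest for Wnt9a, Wnt2b, Fzd4 and Dkk3.

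Among the secreted inhibitors Sfrp1, which binds Wnt ligands, had a higher mean after PNX at both days. At day 7 it stood at 219, 135 and 154 CPM in sham and at 259, 301 and 317 CPM in PNX (log2 fold change 0.79 ± 0.37, edgeR adjusted p = 0.390), with no overlap. At day 14 it stood at 51.7 and 153 CPM in sham and at 203, 144 and 186 CPM in PNX (0.79 ± 0.43, adjusted p = 0.747), where 1 PNX library lay below the upper sham library. Over both days the difference was 0.79 ± 0.28 (adjusted p = 0.300), and without the 3 libraries of highest background it was 0.42 ± 0.23 (0.392). With replicate 1 of sham at day 14 left out it was 0.49 ± 0.25 (0.386), and with replicate 2 left out 1.33 ± 0.28 (0.0826).

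Dkk3 stood at 556, 437 and 1151 CPM in sham and at 306, 268 and 418 CPM in PNX at day 7 (log2 fold change -1.11 ± 0.47, edgeR adjusted p = 0.324). Every PNX library lay below every sham library. Its day 14 values were 148 and 584 CPM in sham and 486, 330 and 284 CPM in PNX (0.00076 ± 0.52, adjusted p = 1), with the 2 sham libraries at both ends. Sfrp2 stood at 38.3 and 49.6 CPM in sham and at 87.3, 102 and 116 CPM in PNX at day 14 (1.20 ± 0.61, adjusted p = 0.747), without overlap. At day 7 it read 108, 80.8 and 214 CPM in sham and 62.4, 58.4 and 286 CPM in PNX, and the groups overlapped. Wif1, which binds Wnt ligands, stood at 50.5, 12.5 and 114 CPM in sham and at 17.5, 12.2 and 23.9 CPM in PNX at day 7. For day 14 the values were 8.40 and 57.1 CPM in sham and 19.4, 15.8 and 14.2 CPM in PNX. Its difference over both days was -1.37 ± 0.55 (adjusted p = 0.425). Without the 3 libraries of highest background, in each of which it was at 12.5 CPM or less, it was -1.89 ± 0.29 and passed (adjusted p = 0.00892). That fit keeps 1 sham library at day 14. Sfrp4 ranged from 60.1 to 325 CPM in sham and from 77.8 to 224 CPM in PNX. Dkk2 was at 81.1, 2.58 and 31.3 CPM in sham at day 7 and at 1.35 to 22.9 CPM in the other libraries, with a standard error of 1.01 on its day 7 log2 fold change of -1.61. Notum, the Wnt lipid hydrolase, stood at 4.50, 7.30 and 5.51 CPM in sham and at 4.25, 3.88 and 3.47 CPM in PNX at day 7 (-0.57 ± 0.52, edgeR adjusted p = 0.727), just apart.

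All 4 target and feedback genes had a negative log2 fold change for PNX at day 7 and at day 14, and none passed. Axin2, the most widely used target of canonical signalling, stood at 11.9, 25.1 and 17.7 CPM in sham and at 10.2, 14.9 and 11.2 CPM in PNX at day 7. At day 14 it stood at 12.1 and 12.1 CPM in sham and at 6.16, 11.5 and 13.9 CPM in PNX. The groups overlapped at both days. The 95% interval of its log2 fold change ran from -1.43 to 0.24 at day 7 and from -1.14 to 0.74 at day 14, so a log2 change of -1 lay inside it at either day. Its exons overlap a gene of the other strand, and the strand setting of the counting is not given in the sources used here. Nkd1, a feedback inhibitor inside the cell, stood at 23.1, 55.0 and 39.7 CPM in sham and at 27.7, 24.1 and 22.0 CPM in PNX at day 7 (-0.67 ± 0.34, edgeR adjusted p = 0.431). For day 14 its libraries read 26.9 and 20.6 CPM in sham and 18.1 and 18.7 CPM in replicates 2 and 3 of PNX, with PNX replicate 1 between the sham libraries, so that the groups overlapped.

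Tcf7 and Lef1, the partners of beta-catenin that T cells also express, were highest in 1 library. Tcf7 stood at 2.95, 2.58 and 49.4 CPM in sham at day 7 and at 4.59, 4.43 and 5.53 CPM in PNX. For day 14 the libraries read 1.68 and 6.46 CPM in sham and 2.98, 3.45 and 1.12 CPM in PNX. Lef1 stood at 13.9 CPM in sham day 7 replicate 3 and at 0.843 to 7.73 CPM elsewhere. Cd3e, a T cell receptor component, stood at 15.5 CPM in the same library and at 0 to 2.32 CPM in the others. The 13 haematopoietic markers summed to 80.5 CPM there, the lowest sum of all libraries, but the markers differed. Lyz2, the largest of them in every other library, was lowest there, as was Cd68 (3.19 CPM). Ptprc, the gene of CD45, stood at 22.6 CPM there, exceeded only in sham day 14 replicate 2 (51.1 CPM). Laptm5 stood at 12.5 CPM there, exceeded only in the sham libraries of day 14 (33.3 and 26.2 CPM). The part of Cd3e-expressing cells in the Tcf7 and Lef1 values was not tested.

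That library, sham day 7 replicate 3, held the highest value of 13 of the 50 members. Of the 30 members at 5 CPM or more it was the highest for 8. The share of all genes with their highest value in this library is not given here. These counts therefore cannot be read as particular to the members. Sham day 7 replicate 3 also held the highest sum of the 6 adventitial fibroblast markers, 12690 CPM, against 4152 and 5784 CPM in the other sham libraries of day 7 and 2318 to 3030 CPM in PNX. Pi16 made up 8569 CPM of that sum. Ly6a of the same list went the other way, at 214 CPM against 303 to 422 CPM in PNX at day 7. The sums of the mesothelial (3063 CPM) and general mesenchymal markers (28190 CPM) were also highest in this library. Without sham day 7 replicate 3 the split of members at day 7 was 22 higher and 25 lower (median log2 fold change -0.06), and 0 passed.

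Other genes of the pathway, from lists of 85 symbols, were read beside the members. The symbols Ccn4 and Ccn5, other names of the listed Wisp1 and Wisp2, were not in the table. The remaining 83 were in the table and 81 were tested: 2 for Wnt secretion, 15 co-receptors and non-canonical receptors, 11 further inhibitors, 19 of the cytoplasmic chain, 13 nuclear factors and 21 further targets. At day 7, 36 were higher and 45 lower after PNX (median log2 fold change -0.19), and at day 14, 44 were higher and 37 lower (median 0.05). None passed at either day with edgeR. At an unadjusted edgeR p under 0.05 there were 4 higher and 14 lower at day 7, against 4.66% and 8.07% of all genes (12.7% in either direction). At day 14 there were 10 higher and 0 lower, against 3.19% and 3.63% (6.81%). The interaction had 13 higher and 1 lower, against 4.16% and 4.6% (8.76%). Between days there were 7 higher and 2 lower after PNX, against 3.72% and 3.13%, and 2 higher and 12 lower after sham, against 6.32% and 7.94%. DESeq2 called 5 at day 7, all lower (Dvl2, Jun, Sost, Tbx3 and Tnfrsf19), against 2.76% of all genes, and 2 at day 14, both higher (Gsk3b and Wisp1), against 0.693%. Limma voom called 9 at day 7, 3 higher and 6 lower, against 5.82% of all genes, and 0 at day 14, where it called 0%. The smallest p-values at day 7 were those of Jun, a target and immediate early gene, with means of 5498 CPM (sham) and 1428 CPM (PNX; -1.94 ± 0.45, edgeR adjusted p = 0.0853), of Dvl2, which relays the signal from Frizzled, at 16.7 and 3.88 CPM (-2.09 ± 0.49, 0.0853), and of Tbx3, a transcription factor gene, at 84.7 and 24.8 CPM (-1.78 ± 0.46, 0.110). At day 14 they were those of Wisp1, Gsk3b and Tcf7l2. Gsk3b, the kinase that marks beta-catenin for destruction, averaged 107 CPM after sham and 381 after PNX (1.83 ± 0.40, adjusted p = 0.115). Tcf7l2, a DNA-binding partner of beta-catenin, averaged 162 and 412 CPM (1.34 ± 0.44, adjusted p = 0.492).

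Averaged over the days 1 of the 81 genes passed, as higher, with edgeR (3 with DESeq2, 0 with limma voom). This was Wisp1 (also named Ccn4), a secreted matrix-associated protein first described as a Wnt1 target. Its day 7 values were 30.9, 33.9 and 29.3 CPM in sham (31.4 ± 2.36, SD, n = 3) and 60.9, 63.1 and 51.1 CPM in PNX (58.4 ± 6.37, n = 3). Its day 14 values were 17.1 and 31.1 CPM in sham (24.1 ± 9.88, n = 2) and 69.4, 127 and 77.8 CPM in PNX (91.3 ± 30.9, n = 3). Every PNX library lay above every sham library at both days, as held for 1.12% of all genes. The log2 fold change was 0.89 ± 0.33 at day 7 (edgeR adjusted p = 0.235), 1.91 ± 0.39 at day 14 (0.0905) and 1.40 ± 0.25 averaged over the days (0.0228); 0.137% of all genes passed as higher there. The call averaged over the days held with DESeq2 (adjusted p = 3.42e-05) and with the replicate number as a block (0.0370). It was lost with limma voom (1.34 ± 0.27, 0.0911), without the 3 libraries of highest background (1.23 ± 0.28, 0.0586), and when single libraries were left out: replicate 3 of sham at day 7 (0.0592), replicate 1 of PNX at day 7 (0.0695), and replicates 2 (0.111) or 3 (0.0693) of PNX at day 14. Single-day differences were called by limma voom at day 7 (0.96 ± 0.26, 0.0339) and by DESeq2 at day 14 (1.88 ± 0.39, 0.00068). Wisp1 lies on chromosome 15 (66891320 to 66923201). It was 1 of the 21 further targets tested, of which 9 were higher and 12 lower in that comparison.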

How the data were processed

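The authors deposited whole-number read counts per gene symbol, 1 column for each of 11 libraries. The submitters' processing notes name mm10 and bcl2fastq 2.20.0.422; the aligner, counter, annotation and strand setting are not given in the sources used here. Without strand, reads of 10 members whose exons overlap an opposite-strand gene (Axin2, Fzd5, Fzd6, Lef1, Notum, Rspo3, Sfrp2, Wnt11, Wnt5a, Wnt7b) cannot be assigned with certainty.

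From the counts, edgeR 4.0.16 in R 4.3.3 (filterByExpr by group, TMM, robust quasi-likelihood fit of 4 group means, 7 residual degrees of freedom) tested 16011 of 24411 genes and 48 of the 50 reported members; Wnt10a and Wnt3 were filtered out. The threshold was 0.05 on Benjamini-Hochberg adjusted p-values, taken over the whole table of tested genes. The standard error is the absolute log2 fold change divided by the square root of F. CPM of total counts chose the members; printed CPM are TMM-scaled. Exon lengths and positions are from GENCODE M21; upstream sequences from RefSeq GRCm38.p6. Intervals are at 95%. Alternatives were DESeq2 1.42.0, limma voom 3.58.1 with sample weights, other scalings and filters, a GC offset, a replicate block and leaving libraries out. The fit was also run on simulated counts with planted changes, drawn from the gene means and spreads of these data. That run checked only the size of the recovered changes. Such counts lack the uneven background of the real libraries, so it cannot speak to its effect.

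Of the other pathway genes, the 3 of smallest p at each day were named. The members, lists and settings were chosen with earlier results of these data known. Per-library values are given for the 4 members of smallest p in PNX against sham (each day and both days), the 2 of smallest p in the other comparisons and the 2 of highest level per role; further members were named after their values were seen, among them Wnt5a, Wnt5b, Fzd6, Wif1, Notum, Axin2 and Lef1.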

Additional observations from a re-analysis of the deposited data

How the results depend on the processing

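The number of members past the threshold was 0 in all 6 comparisons with edgeR and stayed 0 with RLE size factors, total counts, a filter of 1 CPM in 5 libraries, a GC offset with or without the replicate block, and only the groups compared (not run for the average over the days or the interaction). With the replicate number as a block it was also 0 in each comparison. Of 15 same-numbered pairs, 2 correlated above 0.1 in their deviations from the group mean, and 3 of 11 libraries correlated best with their own number. The 2 pairs joined sham and PNX at day 7, replicates 2 (0.548) and replicates 3 (0.233). Deviations within a group of 2 or 3 libraries are tied to each other, so this check cannot decide whether the numbers pair the libraries. DESeq2 gave 3 at day 7, 2 averaged over the days, 1 in the interaction and 2 between days after sham. Limma voom gave 2 at day 7 and 2 between days after PNX. No filter on low counts gave 1 at day 7 (0.773% of all genes) and 1 averaged over the days (0.443%). Without the 3 libraries of highest background there was 1 averaged over the days (0.615%). Leaving out each library in turn gave 0 to 3 at day 7, 0 to 1 averaged over the days, 0 to 1 in the interaction, 0 to 2 between days after sham (Dkk3 and Sfrp1 without sham day 14 replicate 2, Wnt9a without sham day 7 replicate 1), and 0 elsewhere. The share of all genes called was higher in these fits too. Without sham day 7 replicate 1 it was 2.66% at day 7 and 3.41% between days after sham. Without sham day 14 replicate 2 it was 2.09% in the interaction and 5.41% between days after sham. Averaged over the days it was 0.743% without sham day 14 replicate 1 and 0.445% without PNX day 14 replicate 1. Scaling by total counts moved the all-gene median log2 fold change from 0.03 to 0.21 at day 7 and from -0.07 to -0.26 at day 14. Without the 3 libraries of highest background 33 members were higher and 15 lower at day 14, where the main fit had 24 and 24. Of the values recomputed for 21 pairs of a gene and a comparison (the members chosen by rule in that comparison, and Wisp1), none changed sign, 427 stayed on their side of the threshold, 22 gained the call and 6, all of Wisp1 over both days, lost it; the cause was not tested. Selecting members on TMM-scaled CPM gave the same number, 50. With 2 or 3 libraries a group the median standard error of a member's log2 fold change was 0.58 at day 7 and 0.65 at day 14.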
